A study of Anser cygnoides with 6 samples.

Results

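The insulin-like growth factor (IGF) system was described here by 10 genes, namely the ligands *IGF1* and *IGF2*, the receptors *IGF1R* and *IGF2R*, the adaptor *IRS1*, and the binding proteins *IGFBP2*, *IGFBP3*, *IGFBP4*, *IGFBP5* and *IGFBP7*. The genes were chosen by name as parts of the system, with earlier results of these data known. All 10 of 10 were found among the 14283 genes of the table. The cells were wild-type primary myoblasts of Shitou geese, the precursors of muscle fibers. In the methods of the study they came from the leg muscle of 10 embryos at 15 days. They were enriched by serial plating, mixed and divided into 6 cultures. In the proliferation stage (GM), 3 cultures were kept in DMEM medium with 15% fetal bovine serum per the labels, while the methods of the study also name a higher share of it in the medium that was replaced. In the differentiation stage (DM), 3 cultures were changed to 2% horse serum to form myotubes. The methods of the study place this change at a higher cell density than the collection of the GM cultures. The serum, the density and the time in culture thus cannot be told apart from the stage. The deposited labels give 2 to 4 days in horse serum, and the methods of the study give 3 days. Each culture gave 1 library of RNA depleted of ribosomal RNA. The methods of the study describe this mixed pool of cells, although they also speak of data from 6 geese. With cultures from a mixed pool, the p-values measure the spread between cultures and not between geese.

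IGF1 and IGF2 are secreted peptides that bind the tyrosine kinase receptor IGF1R, which passes the signal through IRS adaptors to the PI3K-AKT and RAS-ERK pathways. IGF2R takes IGF2 up for breakdown in mammals, while its bird counterpart is known to bind IGF2 weakly or not at all. Binding proteins hold IGFs in the extracellular space and are cleaved by proteases, and the system is known in muscle for roles in both myoblast proliferation and differentiation.

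Levels are given as FPKM, the fragments of a gene scaled by its length and by the mapped fragments of the library. The number of reads behind each value is unknown, because no read counts were used, and 0.0001 FPKM stands in the table for 0. Stages were compared with limma on log2(FPKM + 1) over the 10381 genes whose mean reached 0.5 FPKM, and 9 of the 10 IGF system genes passed this limit. All log2 fold changes below are DM over GM on this scale, which understates the change of genes at a low level. DEGs had to have a log2 fold change over 1 in either direction and a p-value, adjusted by Benjamini-Hochberg over all tested genes, under 0.05. A gene is said to have risen or fallen where its adjusted p-value was under 0.05, with or without the fold limit. With 3 libraries in each stage, the smallest p that an exact permutation test of 1 gene can give is 0.1.

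*IGFBP7* was the 1 DEG higher in DM and *IGFBP4* the 1 DEG lower in DM. Over all tested genes, 2.18% were DEGs higher in DM and 1.84% were DEGs lower in DM. Without the fold limit, *IGFBP7*, *IGFBP5* and *IGF2* rose and *IGFBP4* fell, while 14.7% of all tested genes rose and 15.5% fell. The remaining 5 tested members, *IGF1R*, *IGF2R*, *IRS1*, *IGFBP2* and *IGFBP3*, did not pass the test. The libraries of the stages did not overlap for 4 members with DM above GM, against 23.0% of all tested genes, and for 2 members with GM above DM, against 25.7%. The median log2 fold change of the 9 tested members was 0.36 and that of all tested genes -0.03, and the medians of the absolute values were 0.52 and 0.24. Because the members were chosen with earlier results known, these medians describe the chosen genes only and not the IGF system as a whole.

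**Figure D1:**
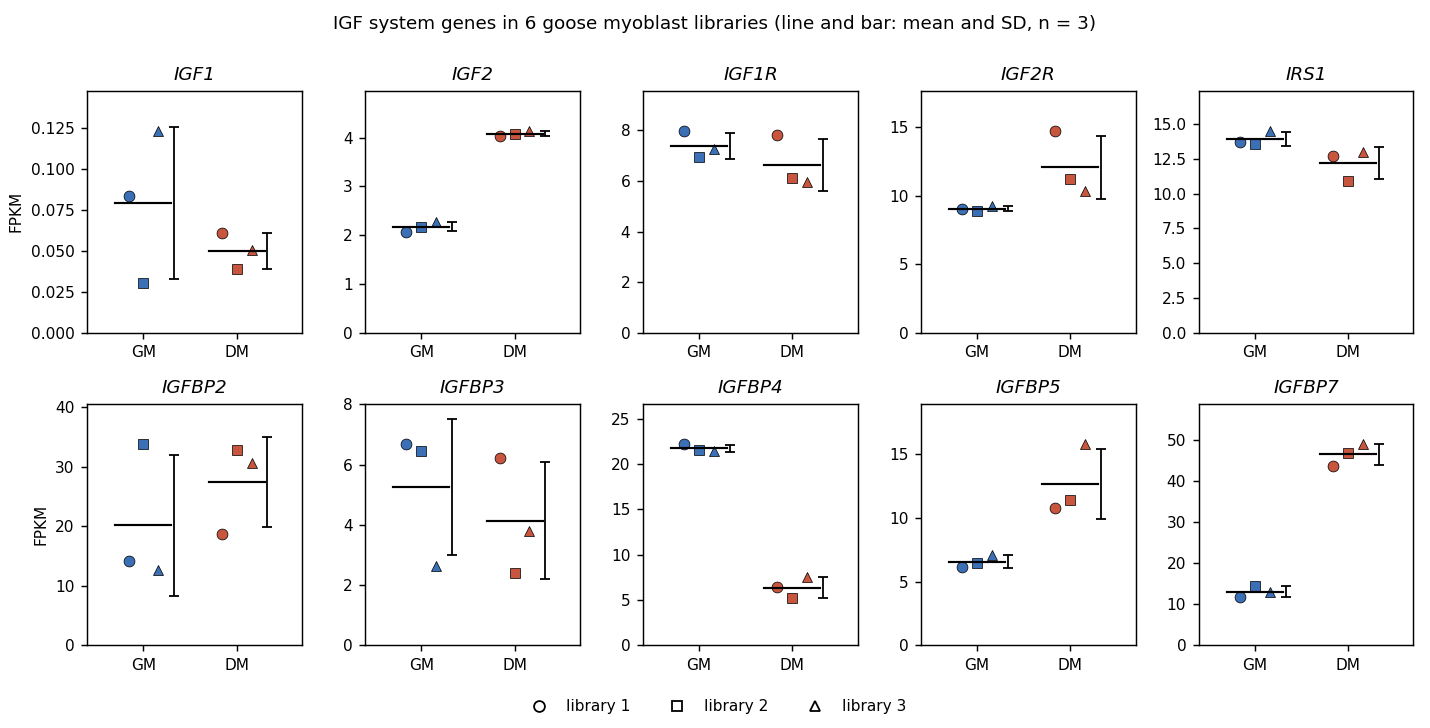
FPKM (linear axis from 0, a separate scale for each gene) of the 10 IGF system genes in the 3 GM libraries (blue) and the 3 DM libraries (red). Each point is 1 library, and the line and the bar give the mean and the SD. *IGFBP7*, *IGFBP5*, *IGF2* and *IGF2R* lie higher in every DM library than in any GM library, and *IGFBP4* and *IRS1* lie lower.

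Of the ligands, *IGF2* was present at a low level in both stages and *IGF1* was lower, at 0.123 FPKM or less in every library. The FPKM of *IGF2* was 2.07, 2.18 and 2.26 in GM_1, GM_2 and GM_3, and 4.03, 4.07 and 4.13 in DM_1, DM_2 and DM_3. The stages stood apart, with less spread within each stage than for most genes. Its mean rose from 2.17 ± 0.0930 to 4.08 ± 0.0499 (SD, n = 3), a ratio of 1.88, and the log2 fold change was 0.68 (SE 0.07, adjusted p = 0.00151 in limma). The coefficient of variation (CV, the SD over the mean) of *IGF2* was 4.29% in GM and 1.22% in DM, beside medians of 8.64% and 11.4% over all tested genes.

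*IGF1* stood at 0.0833, 0.0305 and 0.123 FPKM in the GM libraries and at 0.0606, 0.0388 and 0.0502 FPKM in the DM libraries. The stages overlapped, and the gene was not tested because its mean was under 0.5 FPKM. In each library the level of *IGF2* was 18.4 to 105 times that of *IGF1*. The insulin gene *INS*, which neighbours *IGF2* in the RefSeq annotation of the Taihu goose, was listed at 0 in 5 of the 6 libraries and at 0.191 FPKM in DM_2.

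Of the receptors, *IGF1R*, which carries the signal of both IGFs, did not pass the test. Its FPKM was 7.96, 6.94 and 7.26 in GM and 7.82, 6.11 and 5.96 in DM. The highest library of each stage was the one numbered 1, and the stages overlapped. The log2 fold change of *IGF1R* was -0.14 (SE 0.11, adjusted p = 0.387 in limma), with a 95% interval from -0.42 to 0.14. Single libraries decided its size, which was -0.25 without DM_1 (adjusted p = 0.0771 in limma), -0.09 without GM_1 and -0.08 without DM_3 (adjusted p = 0.645 and 0.662).

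The FPKM of *IGF2R*, also known as the cation-independent mannose-6-phosphate receptor, was 9.0, 8.86 and 9.27 in GM and 14.7, 11.2 and 10.3 in DM. All DM libraries lay above all GM libraries, with DM_1 highest and DM_3 closest to GM. The log2 fold change was 0.36 (SE 0.13, 95% interval 0.05 to 0.68) and did not pass the test (adjusted p = 0.0792 in limma). It was 0.23 without DM_1 (adjusted p = 0.0632 in limma). Without DM_3 it was 0.46 and passed (adjusted p = 0.0495 in limma), and over all alternatives its adjusted p ranged from 0.0495 to 0.175. Within a library, *IGF2R* was 1.13 to 1.28 times the level of *IGF1R* in GM and 1.73 to 1.88 times in DM, ranges that did not overlap, given as a description with no test.

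*IRS1*, the adaptor that couples the receptor to PI3K, was at 13.8, 13.6 and 14.5 FPKM in GM and at 12.7, 10.9 and 13.0 FPKM in DM. Every DM library lay below every GM library, by a small margin in DM_3 against GM_2. The log2 fold change of *IRS1* was -0.18 (SE 0.08, 95% interval -0.38 to 0.02, adjusted p = 0.15 in limma), so the difference did not pass the test. Without DM_2 it was -0.11 (adjusted p = 0.349 in limma).

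**Figure D2:**
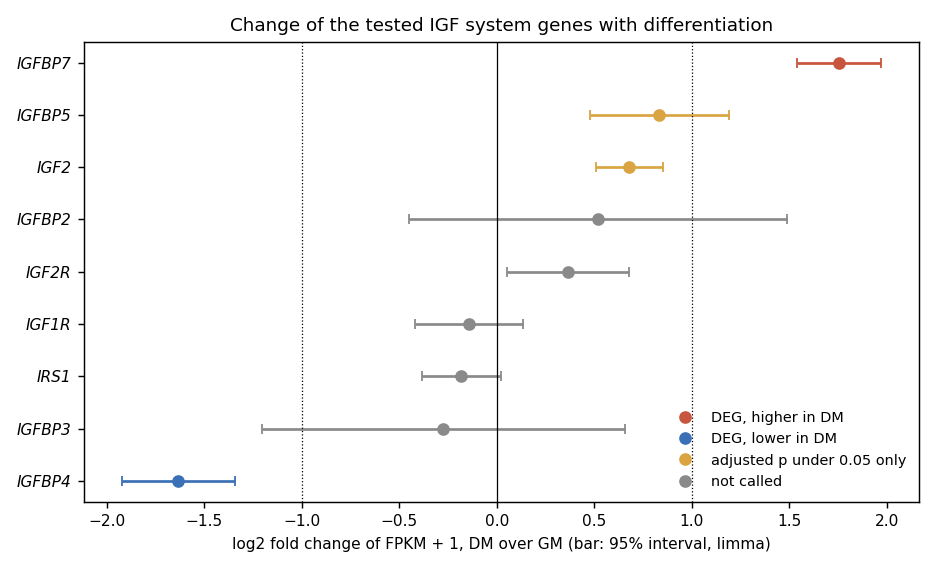
Log2 fold change (DM over GM, FPKM + 1) of the 9 tested IGF system genes with its 95% interval from limma, in order of size. Dotted lines mark the fold limit of a DEG. The intervals of *IGFBP7* and *IGFBP4* lie wholly outside the dotted lines, and the widest intervals belong to *IGFBP2* and *IGFBP3*.

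Of the binding proteins, *IGFBP7* rose most and *IGFBP4* fell most among the 9 tested members. *IGFBP7* encodes a secreted protein of the extracellular matrix that binds IGFs with low affinity. Its FPKM was 11.8, 14.5 and 13.1 in GM and 43.8, 46.8 and 49.1 in DM. The lowest DM library was far above the highest GM library. The mean rose from 13.1 ± 1.36 to 46.5 ± 2.66 (SD, n = 3), a ratio of 3.55, and the log2 fold change was 1.75 (SE 0.09, adjusted p = 0.000197 in limma).

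*IGFBP7* overlaps *POLR2B*, a subunit gene of RNA polymerase II, in the RefSeq annotation of the Taihu goose, and whether the authors' estimate used the strand of the reads is not given in the sources used here. *POLR2B* has its own row, at 24.1, 24.4 and 26.3 FPKM in GM and at 28.9, 27.9 and 29.9 FPKM in DM (log2 fold change 0.21, adjusted p = 0.0492 in limma). The ratio of *IGFBP7* to *POLR2B* was 0.489 to 0.595 in GM and 1.52 to 1.68 in DM. In every pair of libraries across the stages, the listed rise of *IGFBP7* was thus larger than that of the gene it overlaps. The KEGG pathway annotation in the row of *IGFBP7* is that of *POLR2B*. How reads in the overlap were assigned to each row cannot be seen from these ratios and was not tested.

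*IGFBP4*, whose protein is known mainly as an inhibitor of IGF action, changed in the other direction. Its FPKM was 22.2, 21.5 and 21.4 in GM and 6.40, 5.23 and 7.53 in DM. The GM libraries lay close together, and all DM libraries lay far below them. The mean fell from 21.7 ± 0.416 to 6.39 ± 1.15 (SD, n = 3), 3.40-fold lower in DM, and the log2 fold change was -1.63 (SE 0.12, adjusted p = 0.000463 in limma).

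*IGFBP5*, a binding protein known to be induced during myoblast differentiation in mouse, was at 6.14, 6.45 and 7.10 FPKM in GM and at 10.7, 11.4 and 15.7 FPKM in DM. The stages did not overlap, and DM_3 stood above the other DM libraries. The mean rose from 6.56 ± 0.488 to 12.6 ± 2.71 (SD, n = 3), a ratio of 1.92, and the log2 fold change of 0.83 (SE 0.15, adjusted p = 0.00892 in limma) stayed under the fold limit of a DEG.

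*IGFBP2*, the neighbour of *IGFBP5* in the RefSeq annotation, varied more between cultures than between stages. Its FPKM was 14.1, 33.8 and 12.6 in GM and 18.7, 32.8 and 30.6 in DM. GM_2 reached the level of the highest DM libraries, and DM_1 was close to the other GM libraries. The CV of *IGFBP2* was 58.5% in GM and 27.6% in DM. The log2 fold change was 0.52 (SE 0.40, 95% interval -0.45 to 1.49, adjusted p = 0.367 in limma). It was 0.94 without GM_2 (adjusted p = 0.0560 in limma), 0.34 without GM_1 (adjusted p = 0.625) and 0.27 without GM_3 (adjusted p = 0.677), so single libraries decided its size.

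*IGFBP3*, which encodes the main IGF carrier of the blood in mammals, was also uneven. Its FPKM was 6.68, 6.45 and 2.65 in GM and 6.23, 2.41 and 3.79 in DM. GM_3 and DM_2 were the low libraries, and the stages overlapped. The CV of *IGFBP3* was 43.0% in GM and 46.6% in DM, and the log2 fold change of -0.27 (SE 0.38, 95% interval -1.21 to 0.66, adjusted p = 0.627 in limma) did not pass the test. Leaving out 1 library at a time moved it between -0.62 (without GM_3) and -0.01 (without DM_2).

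Summed over the 5 binding proteins, the level was 60.9, 82.7 and 56.9 FPKM in GM and 85.9, 98.7 and 107 FPKM in DM. The mean of the sum was 66.8 FPKM in GM and 97.1 in DM, and that of *IGFBP7* was 13.1 and 46.5. The difference in the sum was thus smaller than that in *IGFBP7* alone. It does not show a general rise of the binding proteins, and the composition of the sum differed between the stages. As a share of it, *IGFBP7* made up 20.0% ± 2.77 in GM and 48.1% ± 2.56 in DM (SD, n = 3), whereas *IGFBP4* made up 33.4% ± 6.39 and 6.61% ± 1.15. *IGFBP2* held 28.7% and 27.9%, *IGFBP5* 10.1% and 12.9%, and *IGFBP3* 7.81% and 4.42%. The ratio of *IGFBP7* to *IGFBP4* was 0.531 to 0.674 in the GM libraries and 6.52 to 8.95 in the DM libraries. These shares describe the FPKM and were not tested apart from the genes that make them up. They depend on the length of each gene model, and *IGFBP5* and *IGFBP7* are annotated as partial and *IGFBP4* as of low quality.

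**Figure D3:**
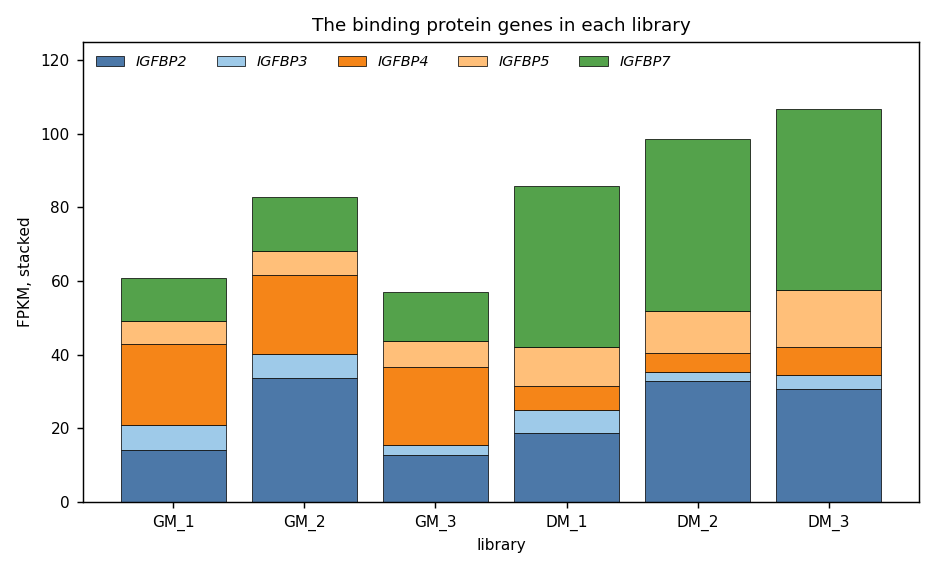
FPKM of the 5 binding protein genes stacked for each library (linear axis from 0). *IGFBP4* is the tallest segment in GM_1 and GM_3 and *IGFBP2* in GM_2, and in every DM library *IGFBP7* is the tallest, at 43.8 to 49.1 FPKM.

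Ordered by mean FPKM in GM, the genes ran *IGFBP4*, *IGFBP2*, *IRS1*, *IGFBP7*, *IGF2R*, *IGF1R*, *IGFBP5*, *IGFBP3*, *IGF2* and *IGF1*. The libraries of neighbours overlapped from *IGFBP4* to *IGFBP7* and again from *IGF1R* to *IGFBP3*, so neighbours within these runs have no clear order. Genes further apart in a run could differ. Every GM library of *IGFBP4* lay above those of *IRS1* and *IGFBP7*, and every GM library of *IGF1R* above those of *IGFBP3*. In DM the order was *IGFBP7*, *IGFBP2*, *IGFBP5*, *IRS1*, *IGF2R*, *IGF1R*, *IGFBP4*, *IGFBP3*, *IGF2* and *IGF1*, with overlap between neighbours from *IGFBP5* to *IGF2R* and from *IGF1R* to *IGF2*. *IGFBP4* thus stood at the top of the order in GM and among the lower genes in DM. Levels between genes depend on the length of each gene model, and 3 of the members (*IGFBP5*, *IGFBP7* and *IRS1*) are annotated as partial and 1 (*IGFBP4*) as of low quality.

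Among the 5503 tested genes whose mean reached 5 FPKM, the patterns most like *IGFBP7* over the 6 libraries, by Pearson correlation of log2(FPKM + 1), were those of *MYL1*, a myosin light chain of fast muscle (r = 0.999), *GSN*, the actin-severing protein gelsolin (r = 0.999), and *MGP*, the matrix Gla protein (r = 0.999). The mean of *MYL1* was 141 FPKM in GM and 388 in DM, that of *GSN* was 62.6 and 98.2, and that of *MGP* was 3.57 and 28.2. The most like *IGFBP4* were *MESDC1* (r = 0.999), *ECD* (r = 0.998) and *WNT5A*, which encodes a secreted Wnt ligand (r = 0.998). Their means in GM and DM were 25.8 and 14.5, 15.7 and 9.15, and 11.7 and 7.17 FPKM. These 3 genes changed less than *IGFBP4*, because the correlation does not measure the size of a change. These values rest on a split into 2 stages that all such genes share, and 498 and 413 genes reached r of at least 0.95 with *IGFBP7* and *IGFBP4*, respectively.

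Markers of cell types were examined because the cultures were enriched by plating and not sorted. Of the myoblast markers, 4 of 4 tested fell, among them *PAX7*, *MYF5* and *MYOD1* as DEGs, and their summed level was 79.5 to 88.8 FPKM in GM and 30.6 to 32.5 in DM. Of the myotube markers, 7 of 12 tested rose, 5 of them as DEGs, such as *MYL3* and *MYOM3*, and the sum was 150 to 158 FPKM in GM and 205 to 233 in DM. *MYOG*, the myogenic factor of early differentiation, was not called (log2 fold change -0.45, adjusted p = 0.0528 in limma). *TMEM8C*, *TNNT3*, *ACTA1* and *TTN* were not called either, and the log2 fold change of *ACTA1* was -0.24 (adjusted p = 0.179 in limma).

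Of the fibroblast markers, 6 of 8 tested rose, 5 as DEGs (*COL1A2*, *DCN*, *LUM*, *PDGFRA* and *TWIST2*). Their sum was 2044 to 2082 FPKM in GM and 4297 to 4569 in DM. This list thus moved with the stage in the same direction as *IGFBP7*, *IGFBP5* and *IGF2*, and so did the sum of the myotube markers. The part of either list in these results was not tested. In the same way, the myoblast markers moved with *IGFBP4*, and their part was not tested. In bulk libraries fewer cells of a type and less RNA per cell cannot be told apart. Of the endothelial, adipocyte, leukocyte and Schwann cell markers, 1 of 1, 1 of 3, 2 of 4 and 1 of 1 tested fell, and 0 rose in limma. The leukocyte markers that fell were *PTPRC* (adjusted p = 0.00576 in limma) and *SPI1* (adjusted p = 0.00333), and their sum was uneven through *CD74*, which ranged from 3.77 to 18.2 FPKM and was not called. The part of these lists in the results was not tested. The endothelial markers summed to 2.81 to 3.07 FPKM in GM and 1.37 to 1.54 in DM, the adipocyte markers to 16.0 to 17.2 and 9.48 to 11.5 (with *PLIN1* listed at 0 in GM_2 and in all DM libraries), the leukocyte markers to 18.8 to 26.7 and 20.2 to 29.1, and the Schwann cell markers to 1.78 to 1.92 and 0.578 to 0.80. The median FPKM of the genes above the floor was 3.70 to 3.94 over the 6 libraries, and 12510 to 12882 genes were above it.

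The rest of the pathway was followed in lists of 101 genes, members included, of which 79 were in the table under their own symbol and 74 were tested. Without the members, 65 genes were tested, of which 10 rose and 8 fell, with *PIK3R3* and *SESN3* as the 2 DEGs higher in DM and *STC1* as the 1 DEG lower in DM. The shares of all tested genes given above (14.7% risen, 15.5% fallen) stand beside these counts. The median log2 fold change of the 65 genes was 0.06, beside -0.03 for all tested genes. Genes in the following paragraphs that do not hold the largest changes of their list are named because the counts are small, after their values were seen.

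Of the proteases that cut binding proteins and the inhibitors of these proteases, 1 of 7 tested rose and 4 fell. The DEG *STC1* encodes stanniocalcin, known in mammals as an inhibitor of the protease PAPPA that cleaves IGFBP4. Its FPKM was 8.26, 7.34 and 5.90 in GM and 1.79, 1.73 and 1.93 in DM, and all DM libraries lay far below the GM libraries (log2 fold change -1.52, SE 0.12, adjusted p = 0.000647 in limma). *STC2*, its relative with the same activity, fell by 0.80 on the log2 scale (adjusted p = 0.00128 in limma). *CTSD*, the lysosomal protease cathepsin D, was at 548, 594 and 601 FPKM in GM and at 281, 320 and 327 in DM, and fell by 0.91 (adjusted p = 0.000988 in limma). *ADAM28*, a metalloprotease, fell by 0.66 (adjusted p = 0.00206 in limma). *HTRA1*, a secreted serine protease that cleaves IGFBP5 in mammals, rose from 63.8, 69.8 and 69.4 FPKM to 93.2, 104 and 115 (log2 fold change 0.61, adjusted p = 0.00470 in limma). *PAPPA* itself was not called (log2 fold change 0.35, adjusted p = 0.323 in limma), and its stages overlapped. *ADAM12* was not called either, and *PAPPA2* was too low to be tested.

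Of the receptors that are not members, *INSR*, the insulin receptor, rose (log2 fold change 0.34, adjusted p = 0.0242 in limma), from 2.89, 2.92 and 2.87 FPKM to 3.71, 4.34 and 3.79. This call was lost without any 1 of GM_1, GM_2, GM_3 and DM_2, with an adjusted p of up to 0.0742 in limma. The ratio of *IGF1R* to *INSR* was 2.38 to 2.76 in GM and 1.41 to 2.11 in DM.

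Of the 9 other adaptors tested, 2 rose and 1 fell. *IRS4*, a relative of *IRS1*, rose from 14.0, 15.9 and 15.8 FPKM to 20.8, 20.9 and 20.3 (log2 fold change 0.42, adjusted p = 0.00711 in limma). Per length, *IRS4* was 1.02 to 1.17 times the level of *IRS1* in GM and 1.55 to 1.92 times in DM, ranges that did not overlap. The size of this ratio depends on the length of each gene model, and *IRS1* is annotated as partial. *GRB10*, an inhibitory adaptor of IGF1R and INSR, rose (log2 fold change 0.58, adjusted p = 0.0299 in limma), a call lost without GM_2, GM_3 or DM_2 (adjusted p up to 0.0901 in limma), with no filter on low values (0.0518) and with the libraries rescaled to the same sum (0.0557). *SH2B2*, an adaptor of the insulin receptor, fell by 0.61 on the log2 scale (adjusted p = 0.00602 in limma).

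Of the PI3K-AKT genes, 2 of 12 tested rose and 0 fell. *PIK3R3*, a regulatory subunit of PI3K, was at 4.09, 3.45 and 3.0 FPKM in GM and at 9.23, 8.80 and 7.90 in DM, without overlap (log2 fold change 1.10, SE 0.11, adjusted p = 0.00149 in limma). *PIK3CD*, a catalytic subunit, rose by 0.48 on the log2 scale (adjusted p = 0.00469 in limma). *PIK3CA*, another catalytic subunit, was at 3.70, 9.31 and 4.19 FPKM in GM and at 10.0, 9.03 and 9.21 in DM, so that GM_2 stood at the level of DM, and it was not called (adjusted p = 0.115 in limma). Without GM_2 it became a DEG (log2 fold change 1.08, adjusted p = 0.00386 in limma), which raised the DEGs of this list from 1 to 2.

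Of the mTOR complexes and targets, 0 of 10 tested passed the test in limma. *RHEB*, the GTPase that activates mTOR, was at 2.99, 3.53 and 3.03 FPKM in GM and at 2.14, 8.05 and 8.99 in DM. It was not called (adjusted p = 0.302 in limma) and was a DEG without DM_1 (log2 fold change 1.19, adjusted p = 0.00237 in limma), which raised the DEGs of this list from 0 to 1.

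Of the FOXO factors, whose activity AKT signaling is known to hold down, and the atrophy targets, 4 of 9 tested rose and 1 fell. The other 4, *FOXO3*, *FOXO4*, *TRIM63* and *FBXO30*, were not called. *SESN3*, a sestrin induced by FOXO factors in mammals, was at 5.32, 4.59 and 3.88 FPKM in GM and at 15.9, 13.4 and 9.97 in DM, without overlap (log2 fold change 1.32, SE 0.18, adjusted p = 0.00366 in limma). *FBXO32*, the muscle ubiquitin ligase atrogin-1, rose from 5.11, 4.81 and 4.75 FPKM to 8.22, 7.87 and 7.60 (log2 fold change 0.59, adjusted p = 0.00216 in limma). *SESN1* rose by 0.32 and *KLF15* by 0.29, and *FOXO1* fell by 0.38 on the log2 scale (adjusted p = 0.0175, 0.0431 and 0.0401 in limma). The call of *SESN1* was lost without GM_1, GM_2 or DM_2 (adjusted p up to 0.0664), and those of *KLF15* and *FOXO1* without any 1 of the libraries other than DM_1 (adjusted p up to 0.117 and 0.119 in limma). *FOXO1* also lost its call with no filter (adjusted p = 0.0587 in limma), the same sum in every library (0.0684) and quantile normalization (0.0661), and *KLF15* with the same median in every library (0.0534).

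Of the RAS-ERK branch, 1 of 12 tested fell and 0 rose. It was *MAP2K2*, a MEK kinase (log2 fold change -0.37, adjusted p = 0.0443 in limma), and the call was lost without GM_1, GM_2, GM_3 or DM_2 (adjusted p up to 0.128), with no filter (0.0692) and with eBayes without a trend (0.0526). Of the 3 IGF2 mRNA-binding proteins, *IGF2BP1* fell from 10.9, 10.5 and 10.5 FPKM to 7.31, 6.41 and 7.69 (log2 fold change -0.52, adjusted p = 0.00593 in limma), and the other genes of the list were not called. *IGF2BP1* thus moved opposite to *IGF2* itself. *IGFBP1*, the neighbour of *IGFBP3*, had a mean of 0.654 FPKM in GM and 0.716 in DM and was not called (adjusted p = 0.701 in limma).

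**Figure D4:**
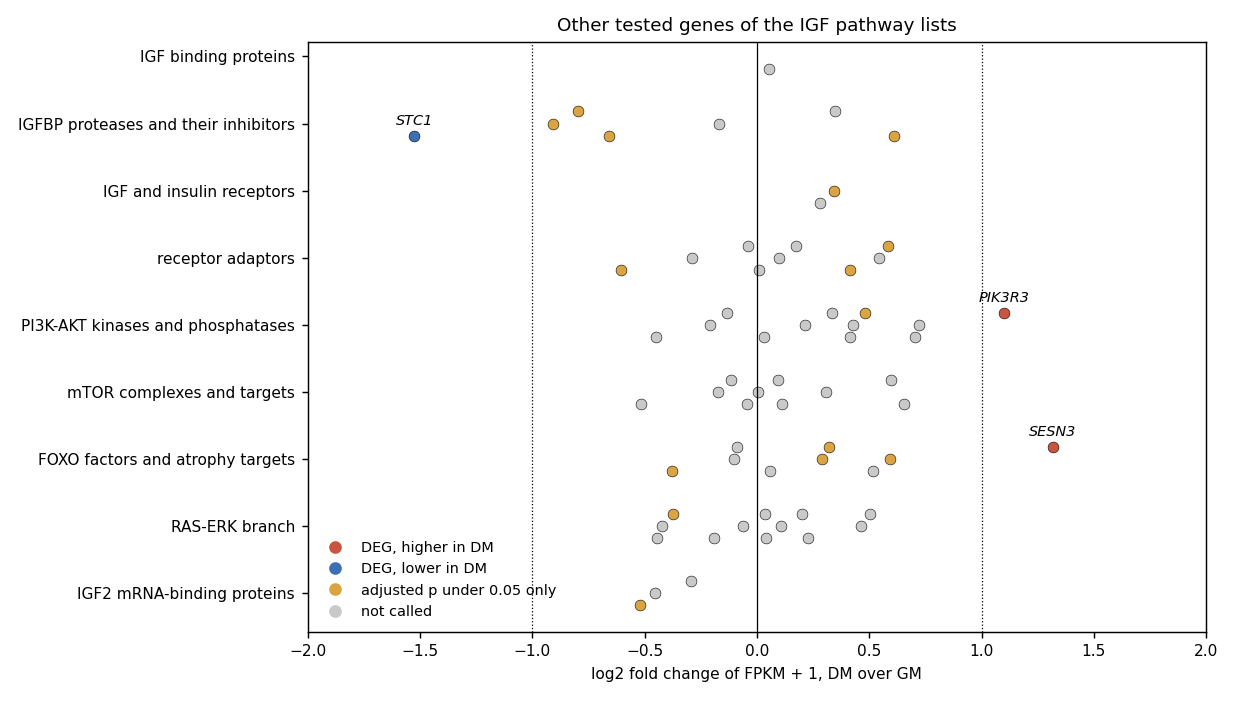
Log2 fold change (DM over GM, FPKM + 1) of the 65 tested genes of the pathway lists that are not members, 1 point per gene, by list. Colors give the call, dotted lines the fold limit of a DEG, and the 3 DEGs *STC1*, *PIK3R3* and *SESN3* are named. The mTOR list has no colored point.

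A second readout at the member genes came from the table of 14993 lncRNA transcripts outside the known annotation. Of these, 2 transcripts lay in introns of *IGF1R* and none was listed at another member. MSTRG.11617.1 has 2 exons, a length of 8809 bases and positions 4278596 to 4292828 on the minus strand of the GooseV1.0 scaffold. MSTRG.11618.1 has 1 exon, a length of 1729 bases and positions 4336742 to 4338470 on the plus strand.

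The FPKM of MSTRG.11617.1 was 3.73, 1.68 and 1.77 in GM and 1.78, 0.844 and 0.803 in DM. The FPKM of MSTRG.11618.1 was 7.36, 4.45 and 4.42 in GM and 4.78, 1.73 and 1.92 in DM. In both, GM_1 and DM_1 were the highest libraries of their stage, and the stages overlapped. Their log2 fold changes were -0.64 (SE 0.28, adjusted p = 0.189 in limma) and -0.81 (SE 0.31, adjusted p = 0.161 in limma), so 0 of 2 passed the test, although both had an unadjusted p under 0.05 (0.0478 and 0.0334 in limma). Without GM_1 the value of MSTRG.11617.1 was -0.38 (adjusted p = 0.415 in limma). Over all tested lncRNAs 3.62% passed in either direction, and for 25.0% every GM library lay above every DM library. The median log2 fold change of all tested lncRNAs was -0.22. Rescaling the libraries to the same median moved it by 0.21 and left log2 fold changes of -0.40 for MSTRG.11617.1 and -0.50 for MSTRG.11618.1, neither past the test.

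The median FPKM of all lncRNAs in introns was 1.39, 0.920 and 1.08 in GM and 1.10, 0.682 and 0.662 in DM, so the libraries numbered 1 were the highest of their stage over this whole class too. The part of this difference between libraries in the values at *IGF1R* was not tested.

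**Figure D5:**
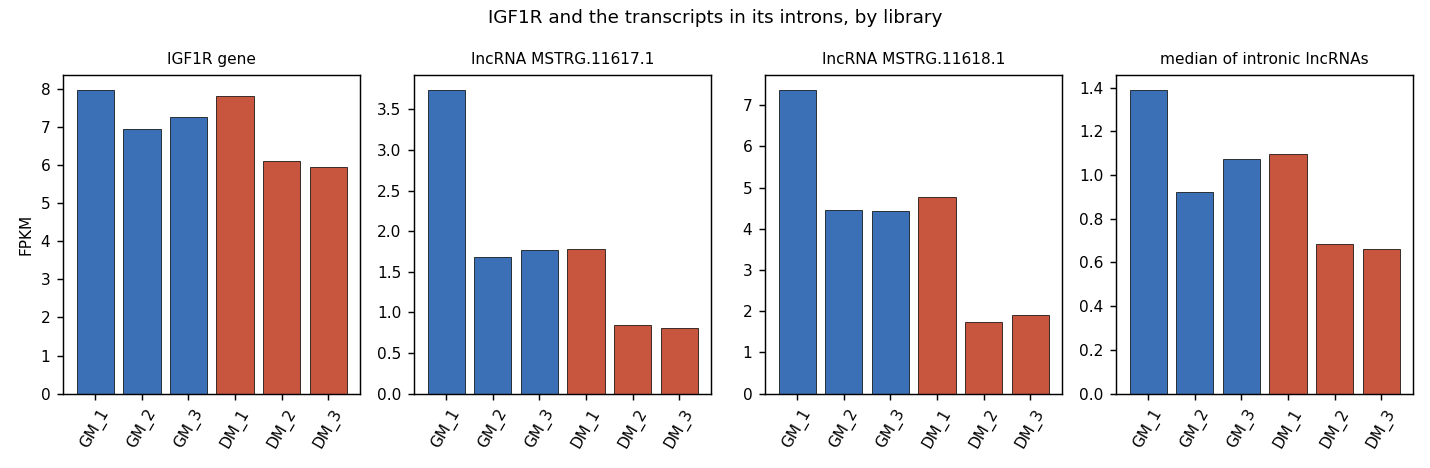
FPKM (linear axes from 0) of *IGF1R*, of the lncRNAs MSTRG.11617.1 and MSTRG.11618.1 in its introns, and the median FPKM of all intronic lncRNAs, 1 bar per library (blue GM, red DM). In each panel the library numbered 1 is the highest of its stage.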

How the data were processed

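Libraries came from 3 GM and 3 DM cultures of Shitou goose myoblasts, 1 from each. The reads were trimmed with Cutadapt and mapped to GooseV1.0, with Bowtie2 in the methods of the study and HISAT2 and TopHat in the submitters' processing notes. Transcripts were assembled by the authors with StringTie, and the deposited values are FPKM estimated with StringTie and Ballgown (0.0001 where the estimate was 0), covering 14283 genes and 14993 lncRNAs. Their own comparison columns (fold change, p-values and calls) were not used. The number of per-sample columns left out was 0. The authors tested with edgeR, which needs counts. For the FPKM used here, log2(FPKM + 1) was fitted with limma 3.58.1 (lmFit and eBayes with a trend, R 4.3.3) over the 10381 genes and 12988 lncRNAs whose mean reached 0.5 FPKM, with Benjamini-Hochberg adjustment over all of them. The fit was also run on simulated data with planted changes and noise drawn independently for each value. That simulation held no shifts shared by the genes of a library. FPKM do not show the depth of a library or the reads behind a gene. The study lists read totals for each library, which were not used here. Precision rests on 3 libraries a stage.

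The members and gene lists were chosen with earlier results of these data known. Named were all members, each DEG of the pathway lists, the 2 genes of each list with the largest change among those with an adjusted p-value under 0.05, and the 3 genes most like each member called a DEG. Other genes of the pathway lists were named outside this rule, after their values were seen. Among them, *PIK3CA* and *RHEB* were named because leaving out 1 library changed their call. Alternatives were no filter on low values or one at a mean of 2 FPKM, a pseudocount of 0.1, rescaling to the same sum or median, quantile normalization, eBayes without a trend, no limit on the fold change, the replicate number as a block and each library left out. Gene neighbours came from RefSeq's annotation of another goose assembly, in which all 10 members were matched by symbol. Symbols not in the gene table, and 6 list genes found only in rows merged with another gene, were not analysed here. Python 3.11.15 with pandas 2.3.3, numpy 2.4.6 and matplotlib 3.10.9 was used for the summaries and figures.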

Additional observations from a re-analysis of the deposited data

How the results depend on the processing

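Of the 9 tested members, 8 kept their direction and their side of the threshold in all 14 alternatives of the fit, and *IGF2R* kept them in 13. The log2 fold change ranged from 1.68 to 1.82 for *IGFBP7*, from -1.76 to -1.51 for *IGFBP4*, from 0.68 to 0.93 for *IGFBP5* and from 0.65 to 0.88 for *IGF2*. Leaving out each library in turn moved *IGF2R* between 0.23 and 0.46. With no limit on the fold change, 3 members were called higher in DM in place of 1, and the calls over all genes went from 226 to 1530 higher and from 191 to 1613 lower, those of the pathway lists to 13 higher and 9 lower. A pseudocount of 0.1 gave 413 genes higher and 397 lower, and it made *ADAM28* a DEG, as quantile normalization did *CTSD*. No scaling moved the median log2 fold change of all genes by over 0.1. Of the other values, those of single pathway genes, lncRNAs and lists, 379 were kept, 34 no longer passed the test and 4 list counts moved. For single genes and lncRNAs this refers to the adjusted p threshold and not to the fold limit of a DEG.

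No pairing of GM and DM libraries beyond the number is given in the sources used here. Pairing by number was fitted only as an alternative, the replicate block, and the correlations that follow are a description with no test. Over genes, the same-numbered deviations correlated by 0.0337, 0.0211 and -0.00245, and the other pairs by -0.0637 to 0.0480. Over lncRNAs the values were 0.0945, 0.0643 and 0.0280, and -0.0938 to 0.0369 for the other pairs. The block lowered the SE of MSTRG.11617.1 to 0.13 and that of MSTRG.11618.1 to 0.14, and neither passed (adjusted p = 0.0728 and 0.0636 in limma). With the replicate block, 403 genes were DEGs in place of 417, every call of a member was kept, and *INSR* (adjusted p = 0.0561 in limma) and *MAP2K2* (adjusted p = 0.0536) lost theirs. The FPKM values do not show the reads behind a gene, so the precision of low genes such as *IGF1* cannot be given.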
